A study of Homo sapiens with 22 samples.

Results

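Whether heat-induced genes return toward their resting level differently once Satellite III (Sat III) RNA is targeted was examined as a difference of differences: the recovery change with Sat III siRNA minus the recovery change with scrambled siRNA. The contrast used 15 of the 22 arrays of the series, chosen by the column names of the deposited scanner table. They were 4 arrays of Sat III siRNA cells after recovery, 3 of untreated Sat III siRNA cells (replicates 1, 2 and 4), 4 of scrambled siRNA cells after recovery and 4 of untreated scrambled siRNA cells. All were HEK293T, an established line of human embryonic kidney origin with a viral T antigen that transfects readily. All had been transfected with one of the 2 small interfering RNAs (siRNAs), so no group was free of transfection. Recovering cells had 1 h in a 42 °C water bath and then 6 h at 37 °C, and untreated cells were kept at 37 °C. The 7 other arrays, 3 of Sat III siRNA and 4 of scrambled siRNA cells at the end of the 1 h heat shock, shared the fit and served to define heat-induced genes. The labels number the replicates and say nothing of separate cultures, so a p-value here reflects array-to-array spread that may be partly or wholly technical. Because whole cultures were lysed, fewer cells of a kind and less RNA per cell cannot be told apart.

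In heat-stressed human cells, heat shock factor 1 (HSF1) switches on the chaperone genes and also the pericentromeric Sat III repeats, whose long non-coding transcripts stay near their sites of synthesis and gather HSF1 and splicing factors into nuclear stress bodies. Chaperones of the HSP70 family, with their DNAJ co-chaperones and HSP110 exchange factors, hold and refold damaged proteins, and as free chaperone builds up HSF1 is shut off and its targets decline. A recovery measurement therefore reads how far each transcript has returned, and some chaperone transcripts are still rising when others have already declined. No probe on the array is annotated to Sat III, so the knockdown itself was not analysed here.

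The 2 deposited tables disagree on some labels. Of the 15 arrays, 10 carried the same values, up to normalisation, under the same name in the scanner table and in the authors' normalised table, and 5 did not: Sat III siRNA recovery replicates 3 and 4, untreated Sat III siRNA replicate 4, scrambled siRNA recovery replicate 4 and untreated scrambled siRNA replicate 4. The scanner table's names were used, and the leading genes and set counts are also given on the 10 arrays whose names match. On those 10, each Sat III siRNA group holds replicates 1 and 2 and each scrambled group replicates 1, 2 and 3. Median probe intensity ran from 48.9 to 64.6 on the 15 arrays, and 13222 to 14863 of 48803 probes had a detection p-value under 0.01. The intensity went with replicate number: 61.2 to 64.6 on replicate 1, 57.6 to 59.7 on 2, 48.9 to 54.8 on 3 and 50.4 to 51.1 on 4. Of 8 genes known from HEK293 cells, 6 (NEFL, NEFM, INA, ENO2, VIM and EYA1) were detected on every array, with a summed level of 7364 to 7952 in Sat III siRNA recovery, 6122 to 6621 in untreated Sat III siRNA, 7571 to 7724 in scrambled siRNA recovery and 5675 to 6475 in untreated scrambled siRNA cells. PAX2 was detected on 0 of 15. Of 7 keratinocyte and carcinoma markers EPCAM, CDH1 and CDKN2A were detected on every array and KRT5 and KRT14 on 0 of 15, and of 8 fibroblast markers COL1A1 and LUM were detected on every array. Blood markers detected on every array numbered 0 of 6, and PTPRC and CD3E were detected on 0 of 15 arrays and CD14 on 8.

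The 3 heat-induced genes with the smallest p-values are shown here by their promoters, since HSF1 binds inverted repeats of nGAAn in such regions. Capitals mark the 8 letters GAANNTTC or TTCNNGAA, where N is any base; each motif is its own reverse complement, so a match on one strand is a match on both, and overlapping matches were counted separately. Each window runs from 250 bases before the RefSeq start to 50 after it, 5′ to 3′ along the gene, in build GRCh38.p14. HSPH1 lies at chr13:31162339-31162638 on the minus strand, HSPA1B at chr6:31827488-31827787 on the plus strand, and the DNAJB1 start with the most matches among 3 listed starts at chr19:14518348-14518647 on the minus strand.
HSPH1: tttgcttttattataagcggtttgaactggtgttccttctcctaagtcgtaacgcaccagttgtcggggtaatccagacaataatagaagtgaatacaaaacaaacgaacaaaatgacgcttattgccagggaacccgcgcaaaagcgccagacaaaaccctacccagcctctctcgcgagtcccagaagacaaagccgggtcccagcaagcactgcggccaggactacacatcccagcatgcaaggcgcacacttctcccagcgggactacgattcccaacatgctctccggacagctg
HSPA1B: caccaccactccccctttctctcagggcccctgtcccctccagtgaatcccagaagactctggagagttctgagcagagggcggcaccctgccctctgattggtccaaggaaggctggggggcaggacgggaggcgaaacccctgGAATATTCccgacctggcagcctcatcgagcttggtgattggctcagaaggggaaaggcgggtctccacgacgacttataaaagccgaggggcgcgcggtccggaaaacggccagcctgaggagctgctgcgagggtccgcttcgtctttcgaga
DNAJB1: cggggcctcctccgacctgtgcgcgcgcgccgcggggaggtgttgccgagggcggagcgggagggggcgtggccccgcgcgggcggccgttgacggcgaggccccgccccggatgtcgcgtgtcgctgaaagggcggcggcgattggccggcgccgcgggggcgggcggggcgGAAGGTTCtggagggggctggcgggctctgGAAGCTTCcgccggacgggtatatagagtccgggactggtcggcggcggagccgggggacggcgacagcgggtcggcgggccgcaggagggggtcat

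HSPA1B held 1 match and the picked DNAJB1 window held 2, while the HSPH1 window held 0. The other DNAJB1 starts held 1 and 0, and the windows of BAG3 and HSPA5, described below, held 0. Such a match stood in 13.5% of all 35116 promoter windows, in 9.84% of 8364 windows of genes tested here and in 16.9% of 154 windows of heat-induced genes. The shares of tested and heat-induced genes take the first listed window of each gene, whereas the DNAJB1 window was picked for its matches. All of these are letter matches only, and no match says only that the letters are not in that window.

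No gene passed the test of the difference. Of 10147 genes, 0 (0%) had an adjusted p under 0.05 by limma with Benjamini-Hochberg adjustment, and likewise 0 of 13097 probes (0%). At an unadjusted p under 0.05 there were 387 genes (3.81%), of which 175 (1.72%) had the higher recovery change with Sat III siRNA and 212 (2.09%) the lower. The arms had large recovery changes of their own. In Sat III siRNA cells 614 genes (6.05%) rose and 603 (5.94%) fell against untreated cells, and in scrambled siRNA cells 599 (5.9%) rose and 507 (5%) fell.

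HSPH1, which encodes the HSP110 exchange factor of HSP70, had the largest difference of the heat-induced genes. Its log2 level was 12.13, 12.28, 12.22 and 12.10 in Sat III siRNA recovery, against 10.99, 10.75 and 10.84 in untreated Sat III siRNA cells. In the scrambled arm it was 13.01, 13.21, 13.20 and 13.05 in recovery, against 11.13, 10.96, 11.25 and 11.05 in untreated cells. Every recovering Sat III siRNA array lay below every recovering scrambled array, and the untreated groups overlapped. The recovery change was +1.33 ± 0.11 (SE) with Sat III siRNA and +2.02 ± 0.10 with scrambled siRNA, both past the test. Their difference was −0.69 ± 0.15, with a 95% interval of −1.004 to −0.39, an unadjusted p of 1.3e-04 and an adjusted p of 0.64 in limma. On a linear scale the fold change in recovery with Sat III siRNA was 0.618 of that with scrambled siRNA (interval 0.499 to 0.766).

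The group means of HSPH1 moved in opposite directions after heat shock. At the end of heat shock it was 12.63, 12.67 and 12.21 with Sat III siRNA, against 12.66, 12.72, 12.46 and 12.40 with scrambled siRNA, and the difference of the heat changes was 0.18 ± 0.15. Between the end of heat shock and recovery HSPH1 fell by 0.32 with Sat III siRNA (adjusted p = 0.040) and rose by 0.56 with scrambled siRNA (adjusted p = 3.6e-04, limma). With Sat III siRNA the heat-shocked replicate 4, at 12.21, lay within the recovery range of 12.10 to 12.28. Heat-shocked replicates 1 and 2 were the higher ones for HSPH1 in both arms, and Sat III siRNA had no heat-shocked replicate 3. Set against heat shock instead of untreated cells, a comparison added after the data had been seen, the difference was −0.88 ± 0.15 with an adjusted p of 0.071, the smallest of any gene there. That comparison gave 0 genes past the test (0%) and 349 at an unadjusted p under 0.05 (3.44%).

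HSPA1B encodes the main stress-inducible HSP70. Its log2 level was 12.76, 12.77, 12.79 and 12.55 in Sat III siRNA recovery, against 12.87, 12.93 and 12.79 in untreated Sat III siRNA cells. In the scrambled arm it was 13.21, 13.03, 13.18 and 13.28 in recovery, against 12.75, 12.83, 12.90 and 12.79 in untreated cells. The scrambled recovery arrays lay above all untreated arrays, while the Sat III siRNA recovery arrays did not. The recovery change was −0.15 ± 0.08 with Sat III siRNA (adjusted p = 0.23) and +0.36 ± 0.07 with scrambled siRNA (adjusted p = 0.0024, limma). Their difference was −0.50 ± 0.10, with an interval of −0.72 to −0.29, an unadjusted p of 8.1e-05, the smallest of all genes, and an adjusted p of 0.64. At the end of heat shock HSPA1B was at 14.75 ± 0.07 with Sat III siRNA (SD, n = 3) and 14.78 ± 0.04 with scrambled siRNA (SD, n = 4). It was then about as bright as the ubiquitin gene UBB, at 14.77 to 14.83 in the 4 groups of the contrast. Whether this signal was near its ceiling, where arms would read alike, was not tested. HSPA1B is nearly identical to HSPA1A, so its probe may read both, and the separate HSPA1A probe was not above background in either untreated group. In recovery HSPA1A was at least 1.32-fold higher with Sat III siRNA and at least 1.37-fold higher with scrambled siRNA, and its fitted difference of −0.04 ± 0.49 rests on those background values.

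DNAJB1 encodes the HSP40 that delivers substrates to HSP70 and helps to silence HSF1. Its log2 level was 9.43, 9.44, 9.31 and 9.23 in Sat III siRNA recovery, against 9.09, 9.05 and 9.23 in untreated Sat III siRNA cells. Scrambled cells had 9.89, 9.71, 9.73 and 10.07 in recovery, against 8.99, 9.03, 9.18 and 9.21 in untreated cells. All 4 recovering Sat III siRNA arrays lay below the recovering scrambled arrays, and the lowest of them reached the untreated range. The recovery change was +0.23 ± 0.10 with Sat III siRNA (adjusted p = 0.14) and +0.75 ± 0.09 with scrambled siRNA (adjusted p = 1.5e-05, limma). Their difference was −0.52 ± 0.13 (interval −0.80 to −0.25, unadjusted p = 7.6e-04, adjusted p = 0.86). At the end of heat shock DNAJB1 had stood at 13.53 ± 0.07 with Sat III siRNA (SD, n = 3) and 13.52 ± 0.16 with scrambled siRNA (SD, n = 4).

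BAG3, a co-chaperone that links HSP70 to selective autophagy, had log2 levels of 9.78, 9.70, 9.89 and 9.66 in Sat III siRNA recovery, against 9.40, 9.41 and 9.43 in untreated Sat III siRNA cells. In the scrambled arm it was 10.11, 10.04, 10.11 and 10.11 in recovery, against 9.21, 9.29, 9.46 and 9.31 in untreated cells. The arms did not overlap in recovery, and each rose, by 0.34 with Sat III siRNA and by 0.77 with scrambled siRNA (adjusted p = 0.039 and 2.8e-05, limma). Their difference was −0.43 ± 0.14 (interval −0.73 to −0.13, unadjusted p = 0.0071, adjusted p = 0.999 in limma). HSPH1, HSPA1B, DNAJB1 and BAG3 were each read by 1 tested probe. Taken directly in recovering cells, Sat III siRNA against scrambled siRNA, HSPH1 was lower by 0.93, DNAJB1 by 0.49, HSPA1B by 0.46 and BAG3 by 0.33, all past the test in a comparison where 702 genes (6.92%) were lower.

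**Figure D1:**
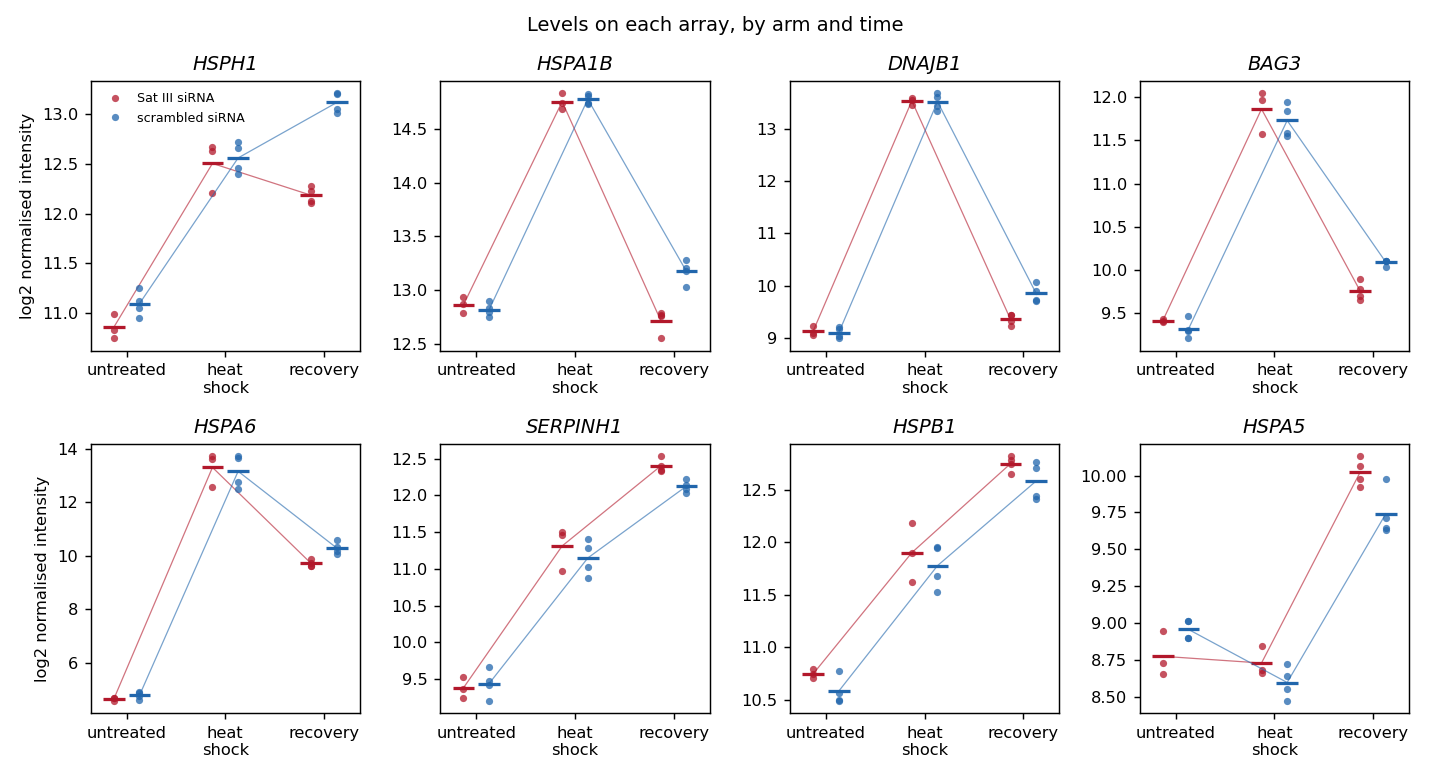
Log2 normalised intensity of 8 genes on each of the 22 arrays, Sat III siRNA in red left of scrambled siRNA in blue; points are arrays, bars are group means and thin lines join the means of untreated, heat-shocked and recovering cells. HSPH1, HSPA1B, DNAJB1, BAG3 and HSPA6 separate by arm in recovery and not at the end of heat shock, and so does SERPINH1 in the opposite direction; HSPB1 overlaps throughout.

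On the 10 arrays whose names match in both tables, which are part of the 15 and so no independent check, the 4 genes kept their direction. There the difference was −0.69 for HSPH1 (unadjusted p = 9.7e-04), −0.45 for HSPA1B (unadjusted p = 0.0031), −0.35 for DNAJB1 (unadjusted p = 0.024) and −0.43 for BAG3 (unadjusted p = 0.017), with adjusted p = 0.98 for each in limma. Leaving out any 1 of the 15 arrays kept HSPH1 between −0.75 and −0.63, HSPA1B between −0.55 and −0.45, DNAJB1 between −0.57 and −0.45 and BAG3 between −0.48 and −0.39. On the matching arrays HSPA6 was at −0.45, SERPINH1 at +0.38, ATF3 at −0.47 and DDIT4 at −0.30 (unadjusted p = 0.24, 0.057, 0.037 and 0.10, limma).

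Other chaperones with large recovery changes had small or imprecise differences. HSPA6, the HSP70 that is nearly silent without stress, was at 9.61, 9.75, 9.89 and 9.61 in Sat III siRNA recovery and at 10.33, 10.17, 10.08 and 10.60 in scrambled siRNA recovery. It was not above background in either untreated group, so its recovery level was at least 19.3-fold higher with Sat III siRNA and at least 30.2-fold higher with scrambled siRNA, against the dimmest detected signal of the untreated arrays. Its fitted difference was −0.44 ± 0.35 (interval −1.17 to 0.28). The recovery arrays did not overlap, but the interval spanned 0. That interval pools the spread of all 6 groups. The SD of HSPA6 was 0.64 in each heat-shocked group and 0.07 to 0.23 in the 4 groups of the contrast. Under all 29 alternatives of processing and array choice the HSPA6 difference stayed below 0. Its unadjusted p ran from 0.012 to 0.45, and its smallest adjusted p was 0.92, with a block for replicate number (limma).

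HSPB1, the small heat shock protein HSP27, was at 12.74, 12.79, 12.65 and 12.82 in Sat III siRNA recovery and at 12.42, 12.77, 12.44 and 12.71 in scrambled siRNA recovery. It rose by 2.00 in each arm, and the difference was 0.00 ± 0.17 (interval −0.35 to 0.35). SERPINH1, the collagen chaperone HSP47 of the endoplasmic reticulum, was at 12.34, 12.32, 12.54 and 12.40 in Sat III siRNA recovery and at 12.15, 12.04, 12.09 and 12.23 in scrambled siRNA recovery. It rose by 3.02 with Sat III siRNA and by 2.69 with scrambled siRNA, and its difference of +0.33 ± 0.18 (interval −0.05 to 0.71) was opposite in sign to that of HSPH1. Every recovering Sat III siRNA array lay above every recovering scrambled array for SERPINH1, while the untreated arrays overlapped. The SERPINH1 difference was above 0 in 28 of 29 alternatives. Its unadjusted p ran from 0.0067 to 0.67, and its smallest adjusted p was 0.87, with a block for replicate number (limma). HSPA4L, an HSP110 relative of HSPH1, rose by 1.34 with Sat III siRNA and by 1.502 with scrambled siRNA, with a difference of −0.16 ± 0.13.

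HSP90AA1, the inducible cytosolic HSP90, rose by 0.35 with Sat III siRNA and by 0.32 with scrambled siRNA on its brightest probe. That probe's difference of 0.03 ± 0.10 had one of the narrower intervals, −0.17 to 0.24. A dimmer HSP90AA1 probe rose by 0.69 and 0.75, with a difference of −0.06 ± 0.15. The dimmest one fell by 0.36 and 0.26, with a difference of −0.09 ± 0.17. HSPA8, the constitutive HSP70, fell by 0.83 with Sat III siRNA and by 0.73 with scrambled siRNA, with a difference of −0.10 ± 0.17. Untreated scrambled replicate 2 was the low array for HSPA8, at 12.77 against 13.43 to 13.51, and without it the difference was 0.07. CRYAB, a small heat shock protein, was not above background in untreated cells and was at least 2.21-fold higher in recovery with Sat III siRNA and at least 2.39-fold higher with scrambled siRNA, with a difference of −0.11 ± 0.36. ACTB and GAPDH had differences of −0.05 ± 0.14 and −0.01 ± 0.12.

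**Figure D2:**
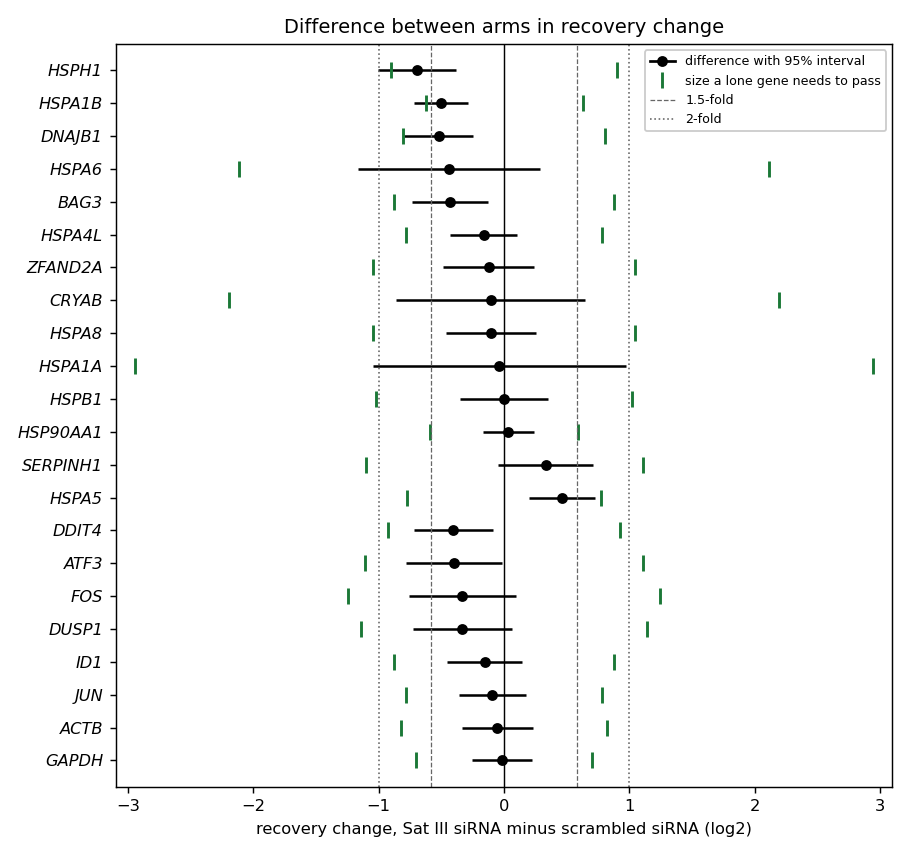
Difference between arms in recovery change, Sat III siRNA minus scrambled siRNA, on the log2 scale for 20 stress genes and 2 reference genes: points are estimates, bars are 95% intervals, and green ticks are the size each gene would need to pass alone among 10147. Every estimate lies inside its green ticks, and the intervals of HSPH1, HSPA1B, DNAJB1, BAG3, DDIT4, ATF3 and HSPA5 leave out 0. HSPA6, HSPA1A, CRYAB and FOS were not above background in untreated cells of either arm, so their intervals rest on background values there.

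A list of 66 cytosolic chaperones and HSF1 targets, 58 of them tested, put these genes in context. None passed the test of the difference; at an unadjusted p under 0.05, 5 had the lower recovery change with Sat III siRNA and 2 the higher, or 12.1% against 3.81% of all genes. The lower ones were HSPH1, DNAJB1, HSPA1B, BAG3 and CACYBP (−0.39 ± 0.17), and the higher ones were MRPL18 (+0.35 ± 0.14) and the chaperonin subunit CCT6A (+0.29 ± 0.10). The list median was −0.04 against −0.002 for all genes, and 33 of 58 lay below 0. On the arrays whose names match, 5 of the list were lower and 3 higher. The median recovery change of the list within each arm was +0.17 with Sat III siRNA and +0.23 with scrambled siRNA.

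CACYBP depended on 1 array. It was at 12.25, 12.25, 12.43 and 12.28 in Sat III siRNA recovery, against 11.76, 11.72 and 11.93 in untreated Sat III siRNA cells, and at 12.23, 12.16, 12.41 and 12.37 in scrambled siRNA recovery, against 11.53, 10.90, 11.58 and 11.60 in untreated scrambled cells. The recovering arms overlapped, and without the untreated scrambled replicate 2 the difference was −0.23 (unadjusted p = 0.062). MRPL18, a mitochondrial ribosomal protein made in a cytosolic form under heat stress, was at 12.16, 12.21, 12.07 and 12.03 in Sat III siRNA recovery and at 11.33, 11.39, 11.47 and 11.37 in scrambled siRNA recovery. It was already higher on the untreated Sat III siRNA arrays, at 11.22, 11.42 and 11.30 against 11.09, 10.80, 10.92 and 10.91 in untreated scrambled cells.

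Heat-induced genes were defined as those raised at least 1.5-fold at the end of heat shock in the scrambled arm with an adjusted p under 0.05, from 606 genes (5.97%) that rose there. This gave 207 genes. The definition shares the 4 untreated scrambled arrays with the difference: a gene that read low on them by chance is more easily chosen and also gets a more negative difference. Just outside the fold limit stood NAB2 and SERTAD2, with differences of −0.23 and −0.07, and just inside it RYBP and PPM1D, with differences of −0.03 and −0.27.

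In recovery, 43 of the 207 were still higher than untreated with Sat III siRNA and 60 with scrambled siRNA, 38 of them in both arms, against 614 (6.05%), 599 (5.9%) and 334 of all 10147 genes. A further 9 with Sat III siRNA and 4 with scrambled siRNA had fallen below their untreated level, against 603 (5.94%) and 507 (5%) of all genes. Their median recovery change was +0.11 with Sat III siRNA and +0.20 with scrambled siRNA. Across the 207 genes the recovery changes of the arms had a Pearson correlation of 0.935, against 0.741 across all genes, a description in which all points share the same arrays.

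Of the 207 genes none passed the test of the difference. At an unadjusted p under 0.05, 13 had the lower recovery change with Sat III siRNA and 1, MRPL18, the higher, or 6.76% against 3.81% of all genes, and 143 (69.1%) lay below 0 against 5129 (50.5%) of all genes. The median difference was −0.06. All 4 recovering Sat III siRNA arrays lay below all 4 recovering scrambled arrays for 32 of the 207, against 869 (8.56%) of all genes. These counts changed with the arm that chose the genes. With the 206 genes heat-induced in the Sat III siRNA arm, which shares the other untreated group, 8 were lower and 6 higher, 114 (55.3%) lay below 0 and the median was −0.02. On the arrays whose names match, the 207 genes gave 13 lower, 3 higher and 136 (65.7%) below 0.

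**Figure D3:**
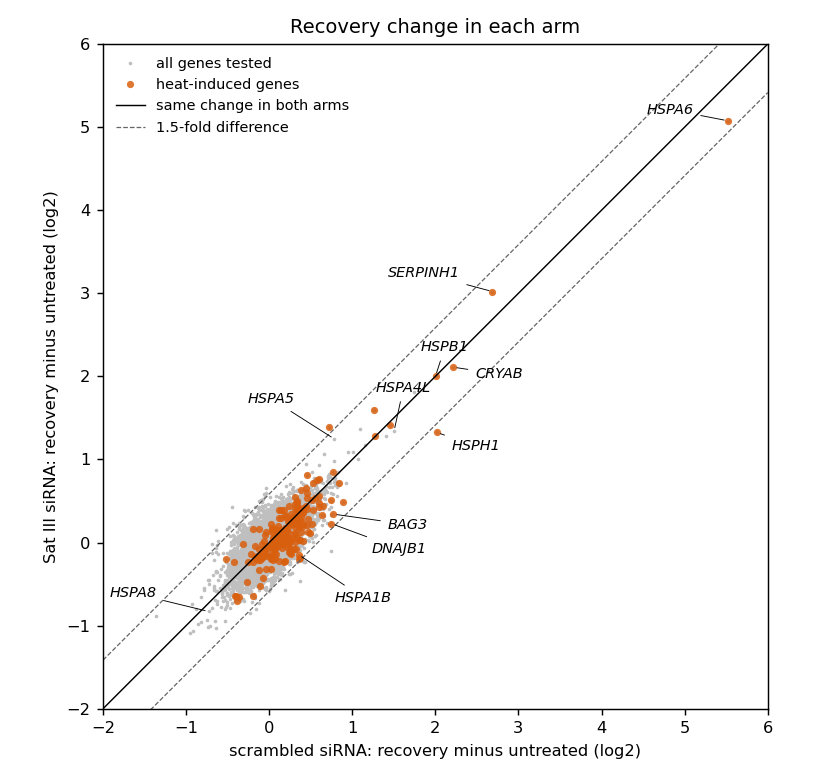
Recovery change against untreated cells in the Sat III siRNA arm (vertical, log2) and in the scrambled arm (horizontal, log2), for all 10147 genes in grey and the 207 heat-induced genes in orange; the solid line is equal change and the dashed lines a 1.5-fold difference. HSPH1 is the named chaperone beyond the lower dashed line, and HSPB1 and CRYAB lie close to equal change.

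ATF3, a stress-induced transcription factor, was at 8.15, 8.27, 8.35 and 8.28 in Sat III siRNA recovery, against 8.34, 8.40 and 8.29 in untreated Sat III siRNA cells. In the scrambled arm it was 9.25, 9.09, 9.22 and 9.35 in recovery, against 9.02, 8.98, 8.63 and 8.9999 in untreated cells. The Sat III siRNA arrays lay below the scrambled arrays both untreated and in recovery, and the difference of the recovery changes was −0.40 ± 0.18 (unadjusted p = 0.041). Without the untreated scrambled replicate 3 it was −0.31 (unadjusted p = 0.10).

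DDIT4, an inhibitor of mTORC1, was at 9.45, 9.59, 9.53 and 9.62 in Sat III siRNA recovery, against 9.73, 9.56 and 9.77 in untreated Sat III siRNA cells. In the scrambled arm it was 9.49, 9.34, 9.48 and 9.78 in recovery, against 9.12, 9.39, 9.27 and 9.25 in untreated cells. The recovering arms overlapped and the untreated Sat III siRNA arrays were the higher ones, and the difference of −0.40 ± 0.15 (unadjusted p = 0.015) came with an untreated gap of 0.43. The AP-1 genes JUN and FOS had differences of −0.09 ± 0.13 and −0.33 ± 0.21, the phosphatase gene DUSP1 −0.33 ± 0.19, the differentiation inhibitor ID1 −0.16 ± 0.15, and the zinc-finger gene ZFAND2A, which adjusts the proteasome under stress, −0.12 ± 0.17. Without the untreated scrambled replicate 2 DUSP1 was at −0.21. A dimmer ID1 probe had a difference of the opposite sign, +0.21 ± 0.18. FOS was not above background in untreated cells of either arm or in Sat III siRNA recovery. Of 31 immediate early genes tested, 1 (ATF3) had an unadjusted p under 0.05, or 3.23% against 3.81% of all genes.

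Of the other heat-induced genes with large differences, several rested on dim or scattered probes. GAREM1, an adaptor of growth factor signalling, was at 6.11, 5.52, 5.57 and 5.74 in Sat III siRNA recovery, against 5.95, 5.83 and 6.00 in untreated Sat III siRNA cells, and at 5.77, 6.08, 6.01 and 5.78 in scrambled siRNA recovery, against 5.65, 5.31, 5.62 and 5.62 in untreated scrambled cells. Its difference was −0.55 ± 0.20 (unadjusted p = 0.012) with overlapping recovery arrays. The small RNAs SNORD16, SNORD46 and RNU6ATAC had differences of −0.56 ± 0.34, −0.18 ± 0.34 and +0.66 ± 0.57. For SNORD16 the untreated scrambled replicate 2 stood at 5.00 against 6.36 to 6.72, and without it the difference was −0.18. For RNU6ATAC it was 0.34 without scrambled recovery replicate 3 and 1.02 without Sat III siRNA recovery replicate 3, and this RNA was not above background in untreated Sat III siRNA cells. SNORD46 turned to +0.08 without untreated Sat III siRNA replicate 1. LEAP2, a secreted peptide, had −0.45 ± 0.20 and was not above background in Sat III siRNA recovery. CYBRD1 (−0.42 ± 0.20), USP46 (−0.37 ± 0.15), MED26 (−0.33 ± 0.13) and THAP10 (−0.28 ± 0.12) made up the rest of the 13. They are a ferric reductase, a deubiquitinase, a Mediator subunit and a THAP-domain protein. CYBRD1 was at −0.25 without the untreated scrambled replicate 4, and on the arrays whose names match USP46 was at −0.21 and MED26 at −0.16.

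How large a difference these data could have missed was read from the 95% intervals. Over the 207 heat-induced genes the half-width of the interval was 0.36 at the median, or 1.29-fold, and ran from 0.18 for ZNF26 to 1.18 for RNU6ATAC; over all genes the median was 0.31, or 1.24-fold. The interval lay wholly within 1.5-fold either way for 125 of the 207 (60.4%), against 79.3% of all genes, and within 2-fold for 200 of the 207 (96.6%), against 99% of all genes. It reached a recovery change at least 1.5-fold lower with Sat III siRNA for 61 of the 207 and at least 1.5-fold higher for 27, against 1048 and 1110 of all 10147 genes. It reached 2-fold lower for 5 and 2-fold higher for 2, against 47 and 58 of all genes. On the arrays whose names match, the median half-width was 0.42 over 223 heat-induced genes. Among HSP genes, HSPA6 (interval −1.17 to 0.28), HSPA1A (−1.05 to 0.97) and HSPH1 (−1.004 to −0.39) reached 2-fold lower. All intervals pool the spread of the 6 groups, including heat-shocked arrays that the difference does not use. For HSPA1A the SD in heat-shocked cells was 0.71 with Sat III siRNA and 0.97 with scrambled siRNA. In the 4 groups of the contrast it was 0.04 to 0.42.

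The adjustment asks for more. A heat-induced gene alone among 10147 would have needed a difference of 1.06 at the median, or 2.08-fold, to pass, and the least demanding 0.53. HSPA1B would have needed 0.63, DNAJB1 0.80, BAG3 0.87, HSPH1 0.90, SERPINH1 1.11 and HSPA6 2.11. The largest difference seen among the 207 was 0.69, and 205 of the 207 estimates were under 1.5-fold. Of the 207, 26 were not above background in at least 1 of the 4 groups, and for these the interval lay within 1.5-fold for 7.

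**Figure D4:**
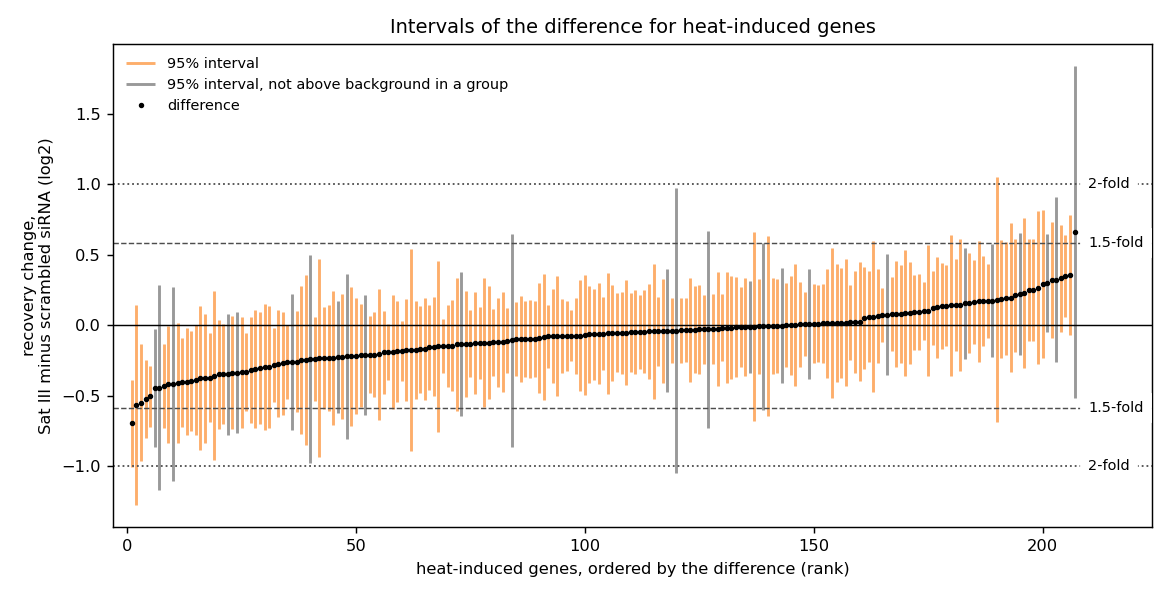
Difference between arms in recovery change (log2, Sat III siRNA minus scrambled siRNA) for the 207 heat-induced genes in order of the difference, with 95% intervals; grey intervals belong to genes not above background in at least 1 of the 4 groups. The intervals of 125 genes stay between the dashed 1.5-fold lines and those of 200 between the dotted 2-fold lines.

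Among chaperones outside the heat-induced set, the smallest p-value in the opposite direction belonged to HSPA5. HSPA5, the endoplasmic reticulum HSP70 known as BiP, was at 10.06, 10.13, 9.92 and 9.98 in Sat III siRNA recovery, against 8.95, 8.73 and 8.65 in untreated Sat III siRNA cells. Scrambled cells had 9.98, 9.71, 9.63 and 9.65 in recovery, against 9.02, 9.01, 8.90 and 8.90 in untreated cells. It rose by 1.25 ± 0.09 with Sat III siRNA and by 0.78 ± 0.09 with scrambled siRNA, and 1 scrambled recovery array reached the Sat III siRNA range. The difference was +0.46 ± 0.13 (interval 0.20 to 0.73, unadjusted p = 0.0015, adjusted p = 0.995 in limma), and +0.46 on the arrays whose names match. The difference of the heat changes was +0.31 ± 0.13 for HSPA5, and it shares both untreated groups with the recovery difference. Untreated HSPA5 was lower by 0.18 with Sat III siRNA. Set against heat shock instead of untreated cells, the HSPA5 difference was +0.15 ± 0.13 (unadjusted p = 0.25, limma).

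Of 21 chaperones and unfolded protein response genes tested, 2 had the higher recovery change with Sat III siRNA at an unadjusted p under 0.05, HSPA5 and the disulfide isomerase PDIA4 (+0.36 ± 0.17), and 1 the lower, the mannosidase-like EDEM1 (−0.38 ± 0.18), or 14.3% against 3.81% of all genes. Both PDIA4 and EDEM1 lost that p without 1 array. The list median was +0.02. PDIA4 was at 8.32, 7.99, 7.93 and 8.05 in Sat III siRNA recovery, against 7.74, 7.64 and 7.61 in untreated Sat III siRNA cells, and at 7.89, 7.79, 7.82 and 7.74 in scrambled siRNA recovery, against 7.95, 8.08, 7.50 and 7.53 in untreated scrambled cells. Those last 4 were the most scattered, and without replicate 2 among them the difference was 0.26. EDEM1 was −0.24 without scrambled recovery replicate 4 and −0.15 on the arrays whose names match. HSP90B1, the HSP90 of this compartment, had +0.20 ± 0.11.

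The smallest p-values beyond the chaperones belonged to genes outside the heat-induced set. On the lower side stood NSUN3, a mitochondrial tRNA methyltransferase (−0.66 ± 0.15), PPIAL4A, a cyclophilin A-like gene of a family with near-identical copies (−0.54 ± 0.12), and C3orf70 (−0.52 ± 0.13), which was not above background in either Sat III siRNA group. On the higher side stood NOP9, a ribosome biogenesis factor (+0.54 ± 0.14), LAMB1, a laminin chain (+0.58 ± 0.15), RABGGTA, a geranylgeranyl transferase subunit (+0.67 ± 0.18), and ZNF442 (+0.67 ± 0.18), which was not above background in untreated Sat III siRNA and recovering scrambled cells. Their adjusted p-values ran from 0.72 to 0.86 in limma.

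NSUN3 was at 6.41, 6.50, 6.28 and 6.31 in Sat III siRNA recovery, against 6.80, 6.51 and 6.52 in untreated Sat III siRNA cells, and at 6.61, 6.70, 6.57 and 6.49 in scrambled siRNA recovery, against 5.88, 6.23, 6.20 and 6.37 in untreated scrambled cells. The untreated arms stood apart, and the recovering arms overlapped narrowly. NOP9 was at 6.21, 6.33, 6.14 and 6.21 in Sat III siRNA recovery, against 5.92, 6.06 and 6.01 in untreated Sat III siRNA cells, and at 5.46, 5.50, 5.50 and 5.72 in scrambled siRNA recovery, against 5.71, 5.83, 6.05 and 5.85 in untreated scrambled cells. The recovering arms of NOP9 did not overlap. LAMB1 was at 6.95, 6.99, 7.07 and 6.64 in Sat III siRNA recovery, against 6.19, 6.55 and 6.50 in untreated Sat III siRNA cells, and at 6.76, 6.62, 6.38 and 6.49 in scrambled siRNA recovery, against 6.67, 6.75, 6.64 and 6.52 in untreated scrambled cells. Its recovering arms overlapped.

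At the end of heat shock the arms also differed in no gene past the test (0 of 10147, 0%), with 368 (3.63%) at an unadjusted p under 0.05. The 18 heat-induced genes of the chaperone list had a median difference of −0.01 in the heat change and −0.12 in the recovery change. Within them 5 had the lower recovery change at an unadjusted p under 0.05, the same 5 as in the whole list, and 1, MRPL18, the higher, or 33.3% against 3.81% of all genes. CACYBP lost that p without untreated scrambled replicate 2, as MRPL18 did without 1 array. The choice of the 18 by scrambled heat rise shares the 4 untreated scrambled arrays with the difference. The list was chosen with earlier results of these data known, so its share is a description.

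**Figure D5:**
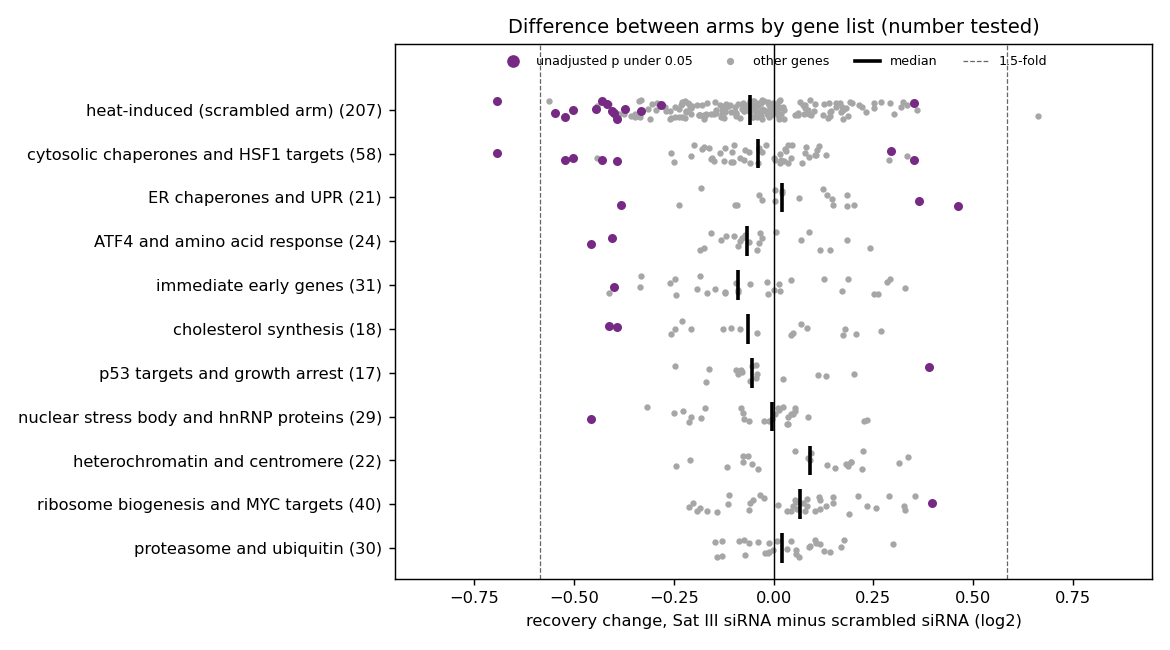
Difference between arms in recovery change (log2, Sat III siRNA minus scrambled siRNA) of each tested gene in 11 sets, with the number tested in brackets; purple points have an unadjusted p under 0.05, black bars are medians and dashed lines mark 1.5-fold. The medians lie between −0.09 and +0.09, and HSPH1, in both of the top sets, is the single gene beyond the lower dashed line, with RNU6ATAC beyond the upper one.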

How the data were processed

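Total RNA of HEK293T cells was purified on RNeasy columns, and 300 ng was amplified and biotin-labelled with an Illumina TotalPrep kit for Illumina bead arrays, per the labels' protocols. The deposited scanner table gives a linear intensity, neither background-corrected nor normalised to judge by its values, and a detection p-value for each probe, per the file headers. The authors' deposited normalised intensity table was an alternative only. The sources used here do not name the software behind either table.

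Intensities were background-corrected, quantile-normalised and set to log2 with limma 3.58.1 (neqc, offset 16) in R 4.3.3. Of 28098 probes with 1 gene symbol, 13097 had a detection p-value under 0.01 on at least 3 arrays. The brightest probe stood for each of 10147 genes. All 6 groups were fitted in one model without blocks (lmFit, eBayes), and p-values were Benjamini-Hochberg adjusted over all genes with a threshold of 0.05. Intervals are 95% from the moderated standard error. A group was not above background where a gene was detected on none of its arrays; a fold is then a bound, the brighter mean over the mean of, per array, the larger of the dimmest detected signal and the probe's own. The script was tested on simulated data. Array number, signal over background and the pooled spread of all 6 groups, heat-shocked arrays included, limit the precision.

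Genes were named by a rule: HSPH1, HSPA1B and DNAJB1; the 5 smallest p-values on each side, as none passed; the 12 largest heat rises and 8 largest differences among heat-induced genes; and a fixed list. Other names were chosen after their values were seen. The genes, lists and comparison were chosen with earlier results of these data known. Promoters are RefSeq's (GRCh38.p14). Alternatives were other scalings, filters, probe rules, blocks, array subsets and the authors' table.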

Additional observations from a re-analysis of the deposited data

Results flagged for a closer look

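Among 108 groups of 4 arrays examined over the named genes and the medians of the heat-induced and chaperone sets, 9 held an array far from the other 3 by Dixon's ratio at its 95% critical value, where chance alone marks about 1 in 20. In Sat III siRNA recovery, HSPA1B was at 12.55 on replicate 4 against 12.76 to 12.79 on the others, and without that array its difference between arms was −0.45. RNU6ATAC was at 5.39 on replicate 3 of the same group against 6.73 to 6.91, and ACTB at 14.02 on replicate 3 against 13.71 to 13.76. In scrambled siRNA recovery, BAG3 was at 10.04 on replicate 2 against 10.11 on each other array, CRYAB at 6.94 on replicate 2 against 6.49 to 6.56, and NOP9 at 5.72 on replicate 4 against 5.46 to 5.50. In untreated scrambled cells, HSPA8 was at 12.77 on replicate 2 against 13.43 to 13.51, GAREM1 at 5.31 on replicate 2 against 5.62 to 5.65, and ATF3 at 8.63 on replicate 3 against 8.98 to 9.02.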

How the results depend on the processing

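Under 29 alternatives 0 genes passed the test of the recovery difference, with 47 (median scaling) to 821 (no filter on dim probes) at an unadjusted p under 0.05, and the smallest adjusted p was 0.21 for HSPH1 without background correction. Under 31 alternatives 0 heat-induced genes passed, and under 28 the heat-shock difference gave 0. The median difference of heat-induced genes was −0.13 with replicates 1 and 2 alone, and −0.08 to −0.05 when single arrays were left out. The median half-width was 0.57 with median scaling. The authors' table as labelled gave no heat-induced gene, −1.23 for HSPH1, −0.37 for HSPA1B, 0.04 for HSPA5 and −0.61 for SERPINH1. In that table the column named scrambled heat shock replicate 4 held, up to normalisation, the scanner values of untreated scrambled replicate 4. That named untreated scrambled replicate 4 held those of Sat III siRNA recovery replicate 3. Under the scanner names HSPA6 on scrambled replicate 4 was at 4.87 untreated, 12.75 at the end of heat shock and 10.60 in recovery. The causes of the changed values were not tested. HSPH1, HSPA1B, DNAJB1, BAG3 and HSPA5 kept their sign in all 29, whereas HSPA1A and HSPB1 did so in 19 and 18. The labels do not say whether arrays with equal replicate numbers were paired. The main fit has no replicate term, so its p-values and intervals include any spread shared by replicate number. Deviations of arrays with equal numbers correlated from −0.08 to 0.33, with a median of 0.17, above 0.1 in 13 of 21 pairs. These pairs leave out the heat-shocked arrays, where HSPA6 differed by replicate number. It was at 13.72 and 13.64 on Sat III siRNA replicates 1 and 2 against 12.58 on replicate 4. On scrambled replicates 1 and 2 it was at 13.68 and 13.74, against 12.49 and 12.75 on replicates 3 and 4. With replicates 1 and 2 against 3 and 4 as a block the smallest adjusted p was 0.54 (limma). With the replicate block 0 genes passed, 598 had an unadjusted p under 0.05 and the smallest adjusted p was 0.33. Differences under about 1.3-fold are below what a typical heat-induced gene's interval resolves here.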

Other observations

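In cholesterol synthesis, a pathway driven by SREBP2, 18 genes were tested and 0 passed the test of the recovery difference. At an unadjusted p under 0.05, 2 had the lower recovery change with Sat III siRNA, or 11.1% against 2.09% of all genes. HMGCS1, which makes the precursor of mevalonate, was at 10.00, 10.31, 10.23 and 10.27 in Sat III siRNA recovery, against 11.07, 11.21 and 11.15 in untreated Sat III siRNA cells, and at 10.58, 10.74, 10.58 and 10.52 in scrambled siRNA recovery, against 10.91, 11.22, 11.16 and 11.24 in untreated scrambled cells. Its recovering arms did not overlap while the untreated arms did, and its difference was −0.41 ± 0.13. INSIG1, a sterol-regulated brake on SREBP, had −0.39 ± 0.14, with untreated levels of 11.55, 11.39 and 11.27 with Sat III siRNA against 10.99, 10.67, 11.12 and 10.80 with scrambled siRNA. The list median was −0.06.

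Of 24 ATF4 and amino acid response genes tested, 2 had the lower recovery change at an unadjusted p under 0.05, DDIT4 and the cystine transporter SLC7A11, or 8.33% against 2.09% of all genes, and the median was −0.07. SLC7A11 was not above background in either untreated group and was detected on 1 of 4 recovering Sat III siRNA arrays and 4 of 4 recovering scrambled arrays, so its fitted −0.46 rests on background values. Of 29 nuclear stress body and hnRNP genes tested, 1 had the lower change, or 3.45% against 2.09% of all genes: HNRNPH2 (−0.46), which was −0.28 without the untreated scrambled replicate 2. Of 53 G2/M genes tested, 1 had the lower change, or 1.89% against 2.09% of all genes: the kinetochore gene NUF2 (−0.52), which was −0.36 without that array. PMAIP1, a pro-apoptotic BH3 protein, had +0.39 among 17 p53 targets, 1 of 17 being 5.88% against 1.72% of all genes on the higher side. The 29 SR protein and splicing kinase genes, 22 heterochromatin and centromere genes and 30 proteasome and ubiquitin genes had 0 at an unadjusted p under 0.05, with list medians of −0.04, +0.09 and +0.02. By limma none of these genes passed after adjustment.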
